A study of Caenorhabditis elegans with 2 samples.

Results

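The 2430 regions described here are all the regions on the X chromosome in a list of 11633 regions pooled from 2 ChIP-seq libraries, 20.9% of that list. They were taken by chromosome alone, whatever their signal. The list was deposited as peaks and background together, before the authors' threshold, and each replicate's own list is of the same kind. Of the X regions 51 passed that threshold, so most regions described here may be background and are not called binding sites. Chromatin immunoprecipitation followed by sequencing (ChIP-seq) recovers DNA bound by a protein and maps it. The libraries came from whole L1 larvae, males and females pooled, of the Caenorhabditis elegans strain OP321. That strain carries the insertion wgIs321, which targets tlp-1, and the mutation unc-119(tm4063) on chromosome III, and the immunoprecipitated product was eGFP-tlp-1. The 2 biological replicates form the only group, with no untagged strain and no other stage. The control was not analysed here. Whole larvae mix all cell types, so that binding in few cells and weak binding in many cannot be told apart. The list held no region within 5000 bp of tlp-1 itself (0 in the pooled list and 0 in either replicate's own list), so that the label was not checked at the tagged gene.

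The gene tlp-1 encodes a zinc finger protein that the T blast cell of the tail needs to divide into unlike daughters, and that males need to remodel the tip of their tail. The X chromosome sets sex in this animal: hermaphrodites carry a pair of X chromosomes and males a single one. In hermaphrodites a dosage compensation complex, brought to X by proteins that include SDC-2, loads at recruitment elements (rex sites) and lowers transcription from both copies. A 12-base consensus named MEX, for motif enriched on X, is known from those recruitment elements; the letters searched were taken from general knowledge of the field and not from a file of the study. GATA factors such as ELT-2 in the intestine and ELT-3 in the epidermis bind the element AGATAA or its variants that end in G (AGATAG), begin with T (TGATAA) or do both (TGATAG), called GATA elements below, and CTTATCA is the extended form associated with intestinal genes.

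At the leading X regions the sequence around the summit, the base of highest signal, held mostly GATA elements. The following windows reach 50 bp to each side of the summit, on the forward strand of the ce11 build, and are shown because they carry the 4 GATA-bearing X regions of highest signal, and elt-3. Capitals mark GATA elements on either strand. The letters are those of the RefSeq assembly.
psa-3, chrX:15408769-15408869: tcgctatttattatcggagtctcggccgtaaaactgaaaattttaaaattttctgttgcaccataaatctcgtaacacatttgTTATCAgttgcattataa
mdl-1, chrX:6743904-6744004: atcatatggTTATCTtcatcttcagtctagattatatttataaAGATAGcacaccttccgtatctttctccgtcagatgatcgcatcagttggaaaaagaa
mrp-5, chrX:14946445-14946545: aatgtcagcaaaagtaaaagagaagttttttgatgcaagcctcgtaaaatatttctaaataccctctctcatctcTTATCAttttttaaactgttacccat
ets-5, chrX:5085418-5085518: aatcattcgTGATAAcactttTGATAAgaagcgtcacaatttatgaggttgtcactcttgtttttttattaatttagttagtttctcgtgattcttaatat
elt-3, chrX:13934370-13934470: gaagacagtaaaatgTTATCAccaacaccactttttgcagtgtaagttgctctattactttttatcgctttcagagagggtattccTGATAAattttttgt

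A second group of strong X regions held no GATA element and carried the MEX consensus instead. The windows below show that consensus in capitals, with up to 2 mismatches allowed and up to 10 bases of flank on each side, cut at 50 bp from the summit. They are the 5 regions of the thresholded list with such a match near the summit, in order of signal.
near nspc-17, chrX:14525898-14525919: GTCCCTGCGCGAtaggcaatag
4060 bp from W02H3.3, chrX:11094113-11094144: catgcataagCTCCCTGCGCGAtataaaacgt
in an intron of Y41G9A.17, chrX:2997060-2997081: ctaggtacacCTCCCTTCGCGA
near T27A8.7, chrX:16056638-16056665: gggaggatggCTACCTGCGCGAgtggcc
4909 bp from xol-1, chrX:8036389-8036420: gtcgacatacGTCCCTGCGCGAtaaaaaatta
The second of them matches the consensus with 0 mismatches, so that its capitals are the searched letters on the reverse strand, and the other 4 differ from it at 1 base each.

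The MEX consensus stood at the summits of X regions more often than at those of autosomal regions. A match lay within 50 bp of the summit in 10 of 2430 X regions (0.412%) and in 5 of 9178 autosomal ones (0.0545%), an odds ratio of 7.58 (95% interval 2.36 to 28.3; Fisher's exact test, two-sided, adjusted p = 4.85e-04). In the authors' thresholded list, which keeps the regions of highest signal, the counts were 5 of 51 X regions and 0 of 252 autosomal ones (adjusted exact p = 0.00221 over 58 comparisons within classes of regions). Each of those 5 had 0 GATA elements near the summit. The DNA of X as a whole was not richer in matches with up to 2 mismatches, at 16.0 per Mb against 16.5 on the autosomes. It was richer in those with 0 or 1 mismatch, at 1.81 per Mb against 0.448, and all 5 thresholded cases are of that kind. In the list of replicate 1 alone the odds ratio was 2.05 and did not pass (adjusted exact p = 0.181). In that of replicate 2 alone it was 2.80 (adjusted exact p = 0.0108). Regions are not independent replicates, so these p-values measure the spread over regions of 2 libraries only.

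X copies with 0 or 1 mismatch were covered more often than those with 2. On X, 32 matches had 0 or 1 mismatch, or 1.81 per Mb, and on the autosomes 37, or 0.448 per Mb. Of the 32, 13 lay wholly inside a pooled region (40.6%), against 1 of the 37 (2.70%, odds ratio 24.6, 95% interval 3.12 to 1075, adjusted exact p = 3.35e-04 over 8 such Fisher's exact tests). In the thresholded list the counts were 9 of 32 and 0 of 37 (adjusted exact p = 7.92e-04). Replicate 1 covered 13 of the 32 X matches and 3 of the 37 autosomal ones, and replicate 2 covered 13 and 0. All 3 exact matches of the genome lay on X, and 2 of them lay in thresholded regions. Of these 3, replicate 1 covered 0 and replicate 2 covered 2. Matches with 2 mismatches were covered in 5.16% of 252 cases on X and in 2.04% of 1325 on the autosomes (odds ratio 2.61, adjusted exact p = 0.00759). Neighbouring matches can share a region and are not independent. Joined within 500 bp they formed 27 loci on X, of which 9 had a match in a pooled region, against 1 of 37 on the autosomes (33.3% against 2.70%, 95% interval of the odds ratio 2.11 to 810, adjusted exact p = 0.00240 over 4 tests). In the thresholded list the loci numbered 6 and 0 (adjusted exact p = 0.00451), in replicate 1 they were 11 and 3 (adjusted exact p = 0.00451), and in replicate 2 they were 9 and 0 (adjusted exact p = 6.81e-04). These counts of matches and loci were added after the first motif result had been seen.

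**Figure D1:**
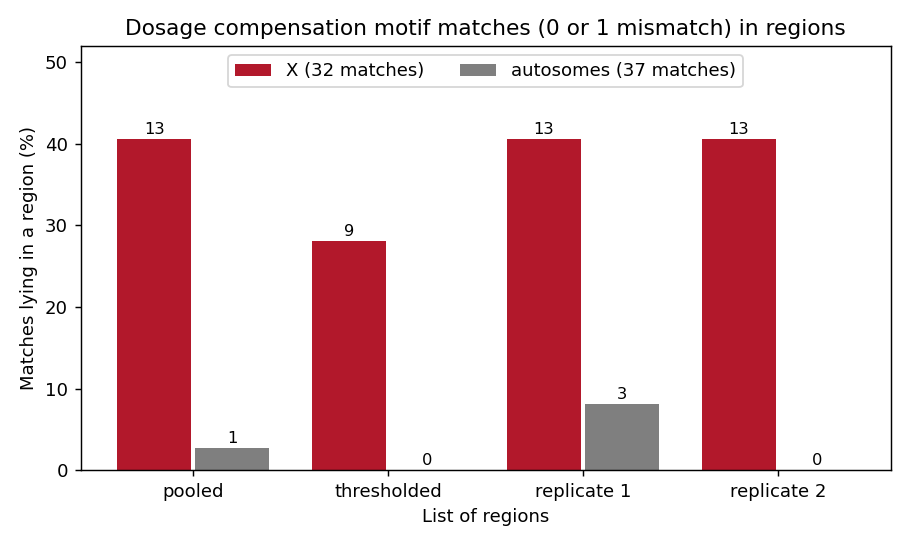
Percent of the MEX consensus matches with 0 or 1 mismatch (vertical axis) that lay wholly inside a region of each list (horizontal axis), for X and for the autosomes together, with the number of matches above each bar. On X 13 of 32 matches lay in a pooled region and on the autosomes 1 of 37.

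The MEX-bearing thresholded regions were present in both replicates. The region near nspc-17, of the nspc family of small nematode peptides, had a pooled signal of 82.9, with 41.1 in replicate 1 (rank 36) and 43.8 in replicate 2 (rank 67). The signal is the authors' value per region; its scale is not stated and is not the same in each list, so that ranks are given beside it. The region with an exact match near its summit, 4060 bp from W02H3.3, had a pooled signal of 66.3, with ranks 85 and 50. The region in the intron of Y41G9A.17 also holds an exact match, at 2997121 to 2997132, further than 50 bp from its summit. It had a pooled signal of 57.7 and ranks 54 and 57. The region nearest xol-1, the switch gene that is on in male embryos and off in hermaphrodite ones, had 38.98. It stood within the first 328 regions of either replicate. The region near T27A8.7 was the exception. Its pooled signal of 50.5 came with rank 77 in replicate 2 and rank 4757 in replicate 1, so that it stood high in 1 library only.

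Counted over the whole region instead of the summit, 6 of the 51 thresholded X regions held a MEX match, and each of the 6 held 2 matches. The sixth lay in an intron of mom-1, a gene of Wnt secretion, at a pooled signal of 44.5 with ranks 479 and 97. Over all X regions a match lay anywhere in 19 (0.782%), against 28 autosomal ones (0.305%, odds ratio 2.58, exact p = 0.00205, unadjusted). Of the 19, 16 were overlapped in both replicates, and their median pooled signal was 28.9 against 16.6 over all X regions. W02H3.3, Y41G9A.17, xol-1 and mom-1 were named after their values had been seen.

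All 10 thresholded X regions without a GATA element can be named. Besides the 6 with MEX matches they were the promoters of spp-14, a saposin-like gene, and of clec-265, a C-type lectin gene, the weaker of a pair of overlapping regions upstream of ets-5, and a region 2134 bp from F09E10.1. Their pooled signals were 55.2, 39.5, 44.2 and 38.9. GATA elements were therefore found in 41 of the 51 thresholded X regions (80.4%), against 228 of 252 autosomal ones (90.5%, odds ratio 0.432, adjusted exact p = 0.181, not called). With the 5 regions that carry MEX at the summit left out, the X share was 89.1% of 46. None of those 5 held a GATA element, so this rise was fixed in advance and tests nothing.

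**Figure D2:**
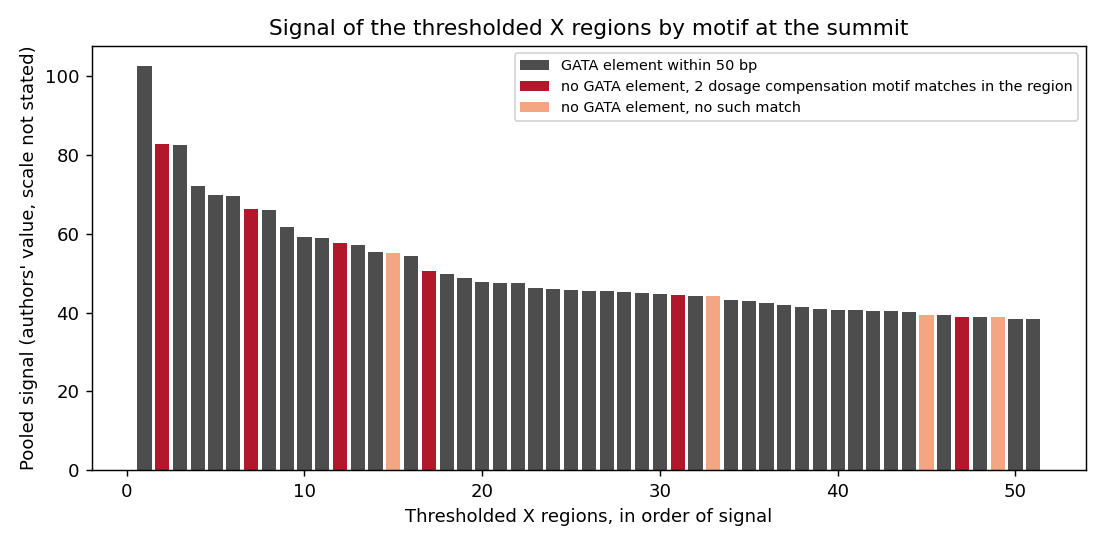
Pooled signal (vertical axis, the authors' value) of the 51 thresholded X regions in order of signal (horizontal axis), coloured by the motif found. The 6 regions with 2 MEX matches include the second at 82.9 and the seventh at 66.3, and none of the 6 has a GATA element within 50 bp of its summit.

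Strong X regions carried the intestinal form of the GATA element less often than strong autosomal ones. CTTATCA lay near the summit in 15 of 51 thresholded X regions (29.4%) and in 147 of 252 autosomal ones (58.3%), an odds ratio of 0.298 (95% interval 0.144 to 0.593, adjusted exact p = 0.00274). Single autosomes ran from 56.1% to 59.7%. Among the thresholded regions with any GATA element the shares were 15 of 41 (36.6%) and 147 of 228 (64.5%, adjusted exact p = 0.00521 over 54 tests added after this result had been seen). Of the short forms, AGATAA was found in 25.5% of X and 26.98% of autosomal regions. AGATAG was found in 9.80% and 6.35%, and TGATAG in 15.7% and 15.9%. TGATAA, the short form contained in CTTATCA on the other strand, was found in 66.7% and 81.0% (adjusted exact p = 0.0759).

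The same direction was seen in each replicate's own list. Among as many nuclear regions of highest signal as the thresholded list holds, 303, CTTATCA lay in 9 of 48 X regions and 109 of 255 autosomal ones in replicate 1 (18.75% and 42.7%, adjusted exact p = 0.00562). In replicate 2 it lay in 18 of 58 and 126 of 245 (31.0% and 51.4%, adjusted exact p = 0.0135). With the MEX-bearing regions left out, the X count was 15 of 46 in the thresholded list (32.6%, adjusted exact p = 0.00562) and 18 of 52 in replicate 2 (34.6%, adjusted exact p = 0.0674), where the difference no longer passed. Over all pooled regions the shares were 6.30% on X and 8.79% on the autosomes (odds ratio 0.697, adjusted exact p = 1.58e-04), and over the whole list of replicate 1 the odds ratio was 0.870 and did not pass (adjusted exact p = 0.138). The difference was clear between genes, where 4.57% of X and 8.82% of autosomal intergenic regions held the element (adjusted exact p = 1.47e-04). In promoters the shares were 13.8% and 15.9%, and in introns 5.04% and 5.38%, with adjusted exact p = 0.557 and 0.949. The DNA of X was not poorer in the element, which stood in 1.78% of evenly spaced windows of the same length on X and in 1.65% on the autosomes.

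Over the whole list the share of X summits with any GATA element did not differ from that of autosomal ones by the test. It was found in 32.6% and 31.9% of regions (odds ratio 1.04, 95% interval 0.940 to 1.14, adjusted exact p = 0.655). Each replicate's own list gave a small excess on X, with odds ratios of 1.12 and 1.21 that passed the test (adjusted exact p = 0.00194 and 4.49e-07). Windows of X DNA held it in 21.7% of cases against 19.5%. Over 10 equal classes of pooled signal the X share went from 62.4% in the highest to 22.7% in the lowest, and the autosomal share from 72.3% to 21.2%. In the highest class the lower share on X passed in the pooled list (146 of 234 against 670 of 927, odds ratio 0.636, adjusted exact p = 0.0105 over the 54 tests). It did not pass in the highest class of replicate 1 (39.2% against 40.6%, adjusted exact p = 0.639) or of replicate 2 (46.2% against 50.4%, adjusted exact p = 0.160). CTTATCA went from 20.9% to 1.39% on X and from 38.3% to 4.34% on the autosomes.

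**Figure D3:**
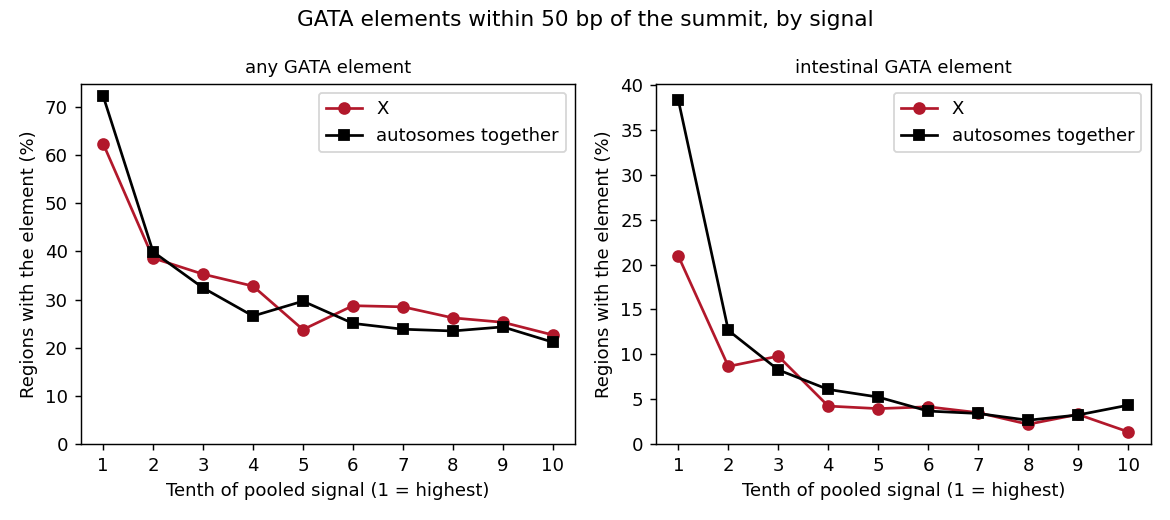
Percent of regions with a GATA element (left) or CTTATCA (right) within 50 bp of the summit (vertical axes) by class of pooled signal, the 10 classes holding equal numbers of nuclear regions and 1 being the highest (horizontal axes), for X and the autosomes together. In the highest class X stands at 62.4% against 72.3% for GATA elements and at 20.9% against 38.3% for CTTATCA.

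Of the other elements tested, 3 differed between X and autosomal summits and 2 did not. The homeobox core TAATTA was more frequent on X (8.23% against 6.47%, odds ratio 1.30, adjusted exact p = 0.00669), and X DNA windows also held it more often, at 5.29% against 4.72%. The odds ratio in replicate 1 alone was 1.11 and did not pass (adjusted exact p = 0.138). TTTTCAG, which resembles a splice acceptor, stood at fewer X summits (8.89% against 11.8%, adjusted exact p = 1.58e-04), as it was in X DNA windows (8.88% against 11.3%). GAGAGA was less frequent (3.37% against 4.91%, odds ratio 0.676, adjusted exact p = 0.00273) while X and autosomal DNA both held it in 5.16% of windows. That difference did not pass in either replicate's list, where the odds ratios were 0.975 and 0.878 (adjusted exact p = 0.762 and 0.141). The E-box CACGTG, bound by proteins of the basic helix-loop-helix class, stood at 1.32% and 1.37%, and the T-box element TCACACC at 0.741% and 0.697%, neither past the test. For CACGTG the lists of the replicates pointed opposite ways, with an odds ratio of 1.20 in replicate 1 (adjusted exact p = 0.196) and of 0.714 in replicate 2, which passed (adjusted exact p = 0.0355).

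The X region of highest signal lay at the promoter of psa-3, a Meis-related homeodomain gene needed when the T blast cell divides, with its summit 236 bp upstream of the transcription start site (TSS) at chrX:15408659-15408978. It had a pooled signal of 103, with 41.9 in replicate 1 (rank 33) and 68.6 in replicate 2 (rank 31), and both libraries thus placed it near their top. After nspc-17 followed the region near mdl-1, a Mad-like transcription factor gene, with a signal of 82.5 and ranks 98 and 33. Its summit lay between genes, 1603 bp downstream of the TSS of mdl-1. The promoter region of mrp-5, which encodes an ABC transporter that exports heme, had 72.0 and ranks 147 and 53. The stronger of the regions upstream of ets-5, an ETS factor gene, had 69.8 with rank 616 in replicate 1 and 37 in replicate 2, so that the libraries placed it differently.

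Further down the order stood an intergenic region near M163.1 (signal 69.6) and promoter regions of K08H2.10 (66.0) and scd-1 (61.8). That of scd-1 was at rank 1445 in replicate 1 and rank 38 in replicate 2. Regions in introns of the forkhead gene fkh-9 and of mob-2 had signals of 59.1 and 58.9 and no TSS within 2000 bp. Promoter regions of abhd-3.2, an alpha/beta hydrolase gene, and spp-14 had 55.5 and 55.2. Those of ckc-1, a choline kinase gene, F18H3.4 and nuc-1, which encodes a nuclease that degrades the DNA of dying cells, had 47.7, 47.5 and 46.0. The region near the galectin gene lec-9 had 48.8, and that in the UTR of sur-7, a gene of metal ion transport, had 47.5. Of the first 25 X regions, the lowest signal was 45.8.

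The authors' threshold kept 51 of the 2430 X regions (2.10%), against 2.61% of all nuclear pooled regions and 2.75% of the autosomal ones. The odds ratio was 0.759 (95% interval 0.549 to 1.03, adjusted exact p = 0.171), so the lower share on X did not pass. With the threshold at the median signal of the thresholded regions it did, at 0.741% on X against 1.46% on the autosomes (odds ratio 0.504, adjusted exact p = 0.0102). The thresholded list holds exactly the regions of highest pooled signal. On X the last inside was an intronic region of Y71H10B.1 at 38.3, just after elt-3 at 38.4. The first outside were acs-22, a fatty acid transport gene, at 38.2, elt-4 at 38.1, ifd-1, an intermediate filament gene, at 38.0005, scav-5, a scavenger receptor gene, at 37.8, and elt-2 at 37.7.

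Below the top, signal on X differed little from the autosomes. The X regions ran from 13.5 to 103 with a median of 16.6, and the autosomal ones from 13.5 to 174 with a median of 16.4. Above the median of all nuclear regions lay 51.5% of X regions and 49.6% of autosomal ones (odds ratio 1.08, adjusted exact p = 0.178). The top 10% of all nuclear regions held 9.63% and 10.1% (odds ratio 0.948, adjusted exact p = 0.673). In the replicates' own lists X stood slightly higher instead. Above the median lay 52.04% against 49.5% in replicate 1 and 52.3% against 49.4% in replicate 2 (odds ratios 1.11 and 1.12, adjusted exact p = 0.00180 and 9.37e-04). The top 10% of the list took in 10.97% against 9.76% in replicate 1 (odds ratio 1.14, adjusted exact p = 0.0161) and 10.6% against 9.85% in replicate 2 (odds ratio 1.09, adjusted exact p = 0.141).

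Regions were denser on X than on the autosomes together. The pooled list held 137 per Mb on X and 111 on the autosomes, a ratio of 1.23 (adjusted exact p = 1.76e-18, two-sided exact binomial test against chromosome length). Single autosomes ran from 102 to 132 per Mb, so X lay above each of them, closest to chromosome IV. The ratios were 1.14 in replicate 1, with 312 on X against 274, and 1.14 in replicate 2, with 266 against 233. In these lists chromosome IV reached 309 and 264, just under X. How well reads map to each chromosome, and the control signal there, were not tested.

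Along X the density was even. Cut into 10 equal stretches it ran from 104.4 to 156 per Mb, with a coefficient of variation of 12.2%, as on chromosome III, against 15.5% to 26.0% on the other 4 autosomes. Of 3 equal stretches the middle one held 34.7% of X regions and 35.6% of autosomal ones (odds ratio 0.963, adjusted exact p = 0.630). Over the 17 full bins of 1 Mb the counts ran from 92 in the first bin to 174 in the bin from 13 to 14 Mb, with a median of 146. Each bin held at least 1 thresholded region, and the most was 7, between 6 and 7 Mb.

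**Figure D4:**
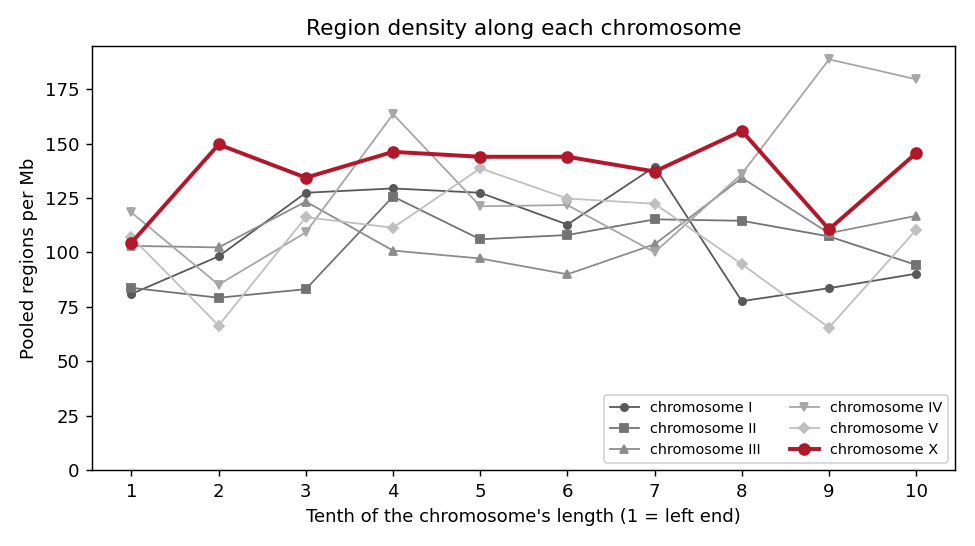
Pooled regions per Mb (vertical axis) in 10 equal stretches of each chromosome (horizontal axis), X in red and the 5 autosomes in grey. X stays between 104.4 and 156, while chromosomes IV and V reach down to 85.2 and 65.5.

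The 51 thresholded X regions formed 46 loci when neighbours within 5000 bp were joined, and 5 loci held 2 regions each. These were at Y71H10B.1, ets-5, ets-4, mdl-1 and endu-2, an endoribonuclease gene. At ets-4, another ETS factor gene, the promoter region had a signal of 45.0 and the intronic one 42.9. The longest run of X regions with gaps under 3000 bp held 11 regions, from 11951884 to 11968381. It covers sams-1, an S-adenosylmethionine synthetase gene, where the 4 regions within 2000 bp of the TSS had signals of 13.8 to 36.2 and an intronic region further in had 41.4. The genes of this paragraph outside the first 25 regions were named after their values had been seen.

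By class of DNA, X regions lay between genes more often and at promoters less often than autosomal ones. A summit was called promoter from 500 bp before to 200 bp after a protein-coding TSS, and otherwise by what it lay in: coding exon, UTR, intron, another kind of gene, or DNA between genes. Intergenic summits made up 45.9% of X regions and 32.7% of autosomal ones (odds ratio 1.75, 95% interval 1.59 to 1.91, adjusted exact p = 1.92e-31), and the highest single autosome had 37.97%. Promoters held 16.996% against 22.2% (odds ratio 0.716, adjusted exact p = 6.20e-08), below the lowest autosome at 19.2%. Introns held 27.8% against 33.8% (odds ratio 0.752, adjusted exact p = 6.20e-08), within the range of single autosomes. A protein-coding TSS lay within 2000 bp of 62.1% of X summits and 67.3% of autosomal ones (adjusted exact p = 8.68e-06), within the range of single autosomes, as chromosome IV had 60.3%. At least 2 such genes lay near 10.9% and 19.5% (odds ratio 0.504, adjusted exact p = 6.07e-24), below the lowest autosome at 14.4%.

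Regions were also counted per Mb of each class of DNA, a count added after the shares had been seen. Such a ratio keeps the higher density of X over all DNA, which the odds ratios of shares leave out, so their directions cannot be compared. X carries 154 protein-coding genes per Mb against 209 on the autosomes, and 34.6% of its DNA is intergenic against 24.3%. Promoter DNA held 174 regions per Mb on X and 145 on the autosomes (ratio 1.20, 95% interval 1.08 to 1.34, adjusted exact p = 0.00154, exact binomial test). Intergenic DNA held 182 and 150 (ratio 1.22, adjusted exact p = 1.22e-07). The ratio over all DNA was 1.23, so the promoter and intergenic ratios stood close to that of X as a whole. Whether any class departs from the ratio over all DNA was not tested. DNA within reach of at least 2 genes held 148 and 98.4 (ratio 1.50, adjusted exact p = 1.68e-08), where the single autosomes ended at 106. For introns the ratio was 1.10 (adjusted exact p = 0.0388) and for coding exons 1.29 (adjusted exact p = 0.0388). For UTRs it was 0.945 and did not pass (adjusted exact p = 0.711). The promoter ratio was 1.05 in replicate 1, where it did not pass (adjusted exact p = 0.268), and 1.10 in replicate 2 (adjusted exact p = 0.0267). The coding exon ratio passed in neither replicate, at 1.11 and 1.06 (adjusted exact p = 0.0813 and 0.438). The intron ratio passed in replicate 1 at 1.07 (adjusted exact p = 0.0153) and not in replicate 2 at 1.06 (adjusted exact p = 0.0528). For DNA near at least 2 genes the ratio was smaller in the replicates, at 1.28 and 1.26 (adjusted exact p = 2.61e-07 and 6.45e-06). The intergenic ratio was 1.12 and 1.13 (adjusted exact p = 4.63e-06 and 6.45e-06). Over all DNA the replicates' ratios were 1.14 and 1.14.

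**Figure D5:**
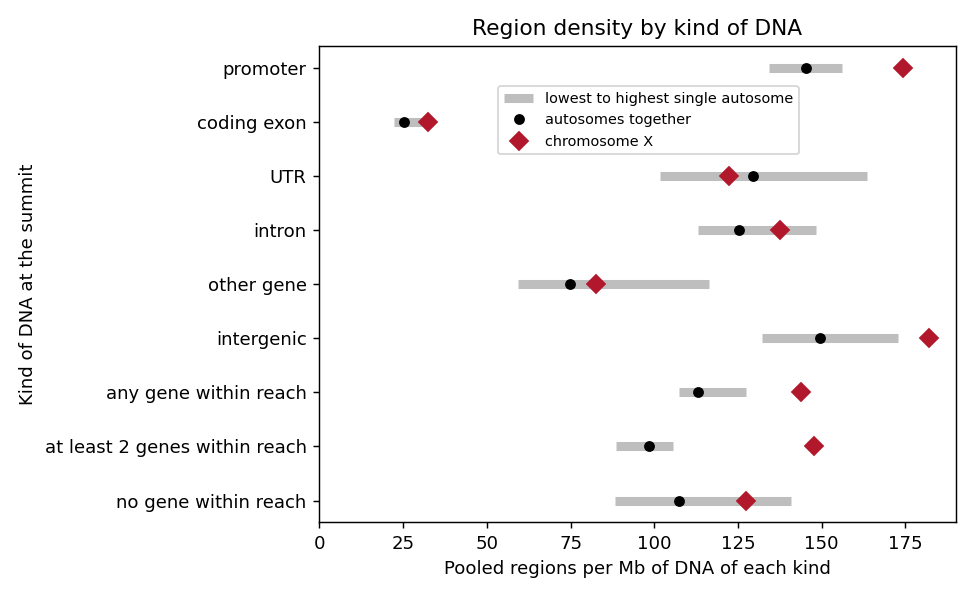
Pooled regions per Mb of DNA (horizontal axis) in each class of DNA or by the number of protein-coding TSSs within 2000 bp (vertical axis), for X, the autosomes together and the range of the single autosomes (bars). In this pooled list X lies beyond every autosome for promoters (174 against 145 for the autosomes together), coding exons, intergenic DNA and DNA near at least 1 or at least 2 genes. In the replicates' own lists, not shown, this failed for intergenic DNA in replicate 1 (383 against 386 on the highest autosome). It also failed for coding exons in replicate 2 (105.1 against 106.1).

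A larger part of the genes of X had a region. Of 2731 protein-coding genes on X, 1277 had a pooled summit within 2000 bp of a TSS (46.8%), against 35.1% on the autosomes, where single chromosomes ran from 32.9% to 37.3%. At least 2 regions stood at 13.99% of X genes and 9.58% of autosomal ones. A thresholded region stood at 30 X genes (1.10%) and at 1.66% of autosomal genes. Genes share regions with their neighbours, so these shares were not tested. The gene with the most regions on X was elt-3, with 6, named for this count. One stood in its promoter with a signal of 38.4 (ranks 3878 and 312), and 3 lay in its introns with signals of 15.8, 32.8 and 20.8, the latter pair overlapping. The remaining regions, to either side, had 17.2 and 15.8. The next genes had 5 each and were ajm-1, of the apical junction, cpx-2, a complexin gene, fln-2, a filamin gene, and nhr-40.

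Lists of X-linked genes were read against that 46.8%, as counts with no test. Most of the regions counted lay below the authors' threshold. Of the GATA factor genes, elt-2, elt-3 and elt-4 had regions with 2 GATA elements near the strongest summit each, while med-1, a gene of the early mesendoderm, had none. Of the 5 genes of Wnt signalling, the T blast cell and the tail, 4 had a region: psa-3, the beta-catenin gene bar-1 (signal 24.0), the nuclear receptor gene nhr-25 (20.2) and the Pax6 gene vab-3 (14.7). The strongest regions of bar-1 and nhr-25 were overlapped in replicate 2 only. The gene lin-18, a Ryk-type Wnt receptor gene, had none within 2000 bp. Of the 15 genes for lectins, saposin-like proteins, lysozymes and infection response, 11 had a region (73.3%), with 2 of them thresholded, spp-14 and clec-265, and the saposin-like pair spp-2 and spp-3 sharing 1 at 29.3. Of 14 intestinal genes 8 had one, led by ifd-1, elt-2, the ABC transporter gene pgp-3 (24.1, overlapped in replicate 1 only) and the aspartyl protease gene asp-3 (22.1), whereas the vitellogenin genes vit-1, vit-2, vit-3 and vit-4 had none.

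In the lists of neuronal function, touch neurons, sex determination and heterochronic genes the share was below 46.8%. The same held for body size and cuticle (25%), homeobox (36%) and serpentine receptor genes (44.4%), described further on. All other lists, that of neuropeptides and insulins (50%) among them, stood above it. Of 16 genes of neuronal function and axon guidance 3 had a region (18.75%), the synaptogyrin gene sng-1 (signal 25.02), the innexin gene unc-7 (22.1) and the calcium channel gene unc-2 (19.2). Of 11 genes of touch neurons and neuronal identity 4 had one, mec-2, ttx-3, mec-4 and mec-10, at 21.4, 17.2, 15.4 and 14.5, the last overlapped in replicate 1 only. Of the 6 genes of sex determination and dosage compensation, fox-1 had a region at 15.9, overlapped in replicate 1 only, and sdc-1 one at 14.04, both below the X median. xol-1, sdc-2, sex-1 and ceh-39 had none within 2000 bp of a TSS. Of the 4 heterochronic genes only alg-1, an Argonaute gene, had a region (27.7), and lin-14, hbl-1 and daf-12 had none.

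In the remaining lists 25% to 62.5% of the X members had a region. Nuclear hormone receptor genes had regions at 15 of 25, led by nhr-27 (33.7), nhr-71 (31.5), nhr-32 (26.2) and nhr-3 (25.01). Genes for neuropeptides and insulins had them at 17 of 34, led by nlp-1 (26.2), ins-39 (22.1), flp-7 (19.4) and nlp-7 (18.7). Serpentine receptor genes had them at 16 of 36, among them srd-51 (23.4) and the diacetyl receptor gene odr-10 (21.9), with srd-44 and srd-48 sharing 1 at 21.3. Of the homeobox genes 9 of 25 had one, ceh-63 (20.3), ceh-31 (18.4) and ceh-18 (17.9) following psa-3. Muscle and pharynx genes had them at 5 of 8, led by the troponin T gene mup-2 (33.2), then the pharyngeal myosin gene myo-2 (18.95), the actin gene act-4 (18.4) and tnt-2 (16.6). Genes of body size and cuticle had them at 8 of 32, led by dpy-3 (21.9), col-167 (20.8), dpy-8 (19.6) and col-172 (18.1). Of the 2 ribosomal protein genes on X, rpl-11.2 had one (22.4). Of the regions named in this paragraph, those of nhr-3, nlp-1, ins-39, ceh-31, myo-2, tnt-2, col-167 and dpy-8 were overlapped in replicate 2 only. In these remaining lists no member beyond psa-3 had a thresholded region.

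X regions were seen in the replicates as often as autosomal ones. A region of replicate 1 overlapped 70.2% of them against 70.6% (odds ratio 0.984, 95% interval 0.891 to 1.09), and one of replicate 2 overlapped 81.7% against 81.3% (odds ratio 1.03, 95% interval 0.914 to 1.16). Both replicates overlapped 53.6% on X and 53.6% on the autosomes (odds ratio 1.00, 95% interval 0.915 to 1.10). None of the 3 differences passed, with the lowest adjusted exact p at 0.818. The pooled list was made from both libraries, so its overlap with them is no independent check. All 51 thresholded X regions were overlapped in each replicate. Among the first 328 regions of the replicates, as many as the thresholded list holds in all, stood 28 of the 51 in replicate 1 (54.9%, against 66.3% of autosomal ones) and 38 in replicate 2 (74.5% against 75.8%). Neither difference passed (adjusted exact p = 0.298 and 0.859). In replicate 1, 9 of the 51 ranked below the first 1000, as did 35 of the 252 autosomal ones, a difference that was not tested. In replicate 2 this was so for 1 of the 51, near M79.2, at rank 3471.

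Some of the 51 thresholded X regions stood near a non-coding RNA gene, and no share over all regions is given to set beside their number. Within 1000 bp of a tRNA gene with no symbol lay the overlapping pair at ets-5, the region in sur-7 and the region nearest xol-1. The region near T27A8.7 lay by the snoRNA gene T27A8.8. The summits 5710 bp from lin-18 and 2134 bp from F09E10.1 lay in genes that are not protein-coding, of a kind not given here. The base composition around X summits did not differ from that of the autosomes, with 46.2% and 45.3% of windows above the common median of GC content (odds ratio 1.04, adjusted exact p = 0.630).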

How the data were processed

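The lists of regions deposited by the authors for the ce10 and ce11 builds were used. Each replicate has its own list; a pooled one exists before and after thresholding on the irreproducible discovery rate. Per the deposited descriptions, the authors derived them from alignments of both libraries and of a control. The signal of each region is the authors' deposited value, with no stated scale. The deposited -log10 q value of the authors reached at most 1.35 in the pooled list and was not used to order regions. The aligner, the peak caller and the threshold are not given in the sources used here. Libraries were sized at 150 to 350 bp per the labels. The lists carry no read counts; depth is therefore unknown, and intervals cover counting error over regions only. All 2430 X regions are distinct and 320 bp wide.

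Summits were placed on ce11 with the Ensembl release 115 annotation and the RefSeq assembly. X was compared with the autosomes by two-sided Fisher's exact tests and 1 exact binomial test, 26 in all, with Benjamini-Hochberg adjustment at 0.05. Motifs were searched on both strands; overlapping matches were kept, so CTTATCA also counts as a GATA element. Windows of 101 bp every 500 bp gave the share in DNA. Named genes were those near the 25 leading X regions, up to 4 members of each of 15 lists, non-coding RNA genes near thresholded regions, and those at the threshold. The names sex-2, let-7 and mir-84 matched no protein-coding gene on X. The members, lists, motifs and tests were chosen with earlier results of these data known. The tests were tried on simulated data. Tests ran in scipy 1.17.1 under Python 3.11.15, tables in pandas 2.3.3 with numpy 2.4.6, and plots in matplotlib 3.10.9.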

Additional observations from a re-analysis of the deposited data

How the results depend on the processing

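Over 25 results and 134 alternatives, 93 kept their direction and their side of the threshold. These include the setting of 1 region per interval, which gave the main values unchanged for all 25 results. No interval occurred more than once, so that setting removed nothing and tests nothing. Values below are odds ratios of X against the autosomes, and the cause of each change was not tested. With each replicate's list alone, the pooled list being left out, signal above the median passed (1.11 to 1.12), as did coding exons (0.734 to 0.777), other genes (0.763 to 0.797) and GATA elements (1.12 to 1.21). The share in the top 10% of signal turned to 1.09 to 1.14, UTRs to 1.03 to 1.05, the middle of 3 equal stretches to 1.02 to 1.05 and GC content to 0.943 to 0.990. Calls were lost in 1 or both lists for CTTATCA (0.786 to 0.870), TAATTA (1.11 to 1.30), GAGAGA (0.878 to 0.975) and MEX (2.05 to 2.80). CACGTG passed in replicate 2 alone (0.714) and turned to 1.20 in replicate 1, and TCACACC ranged from 0.702 to 1.25.

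In the thresholded list alone, with 51 X regions, promoters (0.667), introns (0.856), intergenic positions (1.43) and GAGAGA (0.766) no longer passed. UTRs (1.43), other genes (3.09), GATA elements (0.432), TAATTA (0.988), TCACACC (0.224) and TTTTCAG (1.24) turned direction without passing. With a promoter of 1000 bp the UTR ratio was 1.02. With a motif window of 25 bp TAATTA (1.19) and TTTTCAG (0.892) no longer passed and CACGTG was 1.40. With 100 bp GATA elements passed (1.15). With the stricter threshold the thresholded share passed (0.504). With a wider middle stretch, from 25% to 75% of the length, position was 1.04. The ce10 lists, midpoints in place of summits, stricter overlap and the dense run on chromosome V left out (added after seeing the data) changed no call. Midpoints left every X count by class of DNA as it was, since summits lie at the centre of the X regions. That setting is therefore no check of the X counts. On ce10, chromosome lengths of ce11 were used. Region width did not vary on X and was not recomputed. No paired analysis was possible because the 2 replicates form 1 group. Without read counts, differences in a single region's signal could not be judged against counting error.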
